A study of Mus musculus with 23 samples.

Results

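Genes of heart and smooth muscle were followed through a mouse embryonic stem cell model of blood development, 10 in all, namely Hand1, Hand2, Tbx20, Mybpc3, Myzap, Myl7, Tnnt2, Actc1, Acta2 and Tagln. A probe was taken for a member when its RefSeq identifier belonged to that gene, and where a gene had several probes the one with the highest mean over all 23 arrays was used. All 10 members had a probe and passed the filter on low values, among 20145 genes named on the array and 15202 tested. Myl7 passed it only through induced HE arrays, so that its changes involving that group are not independent of the filter. Only Tbx20 had more than 1 probe, and its other 2 probes correlated with the one used at 0.970 and 0.881 over the arrays. The genes were chosen with earlier results of these same arrays in view, and the probe was selected on its mean level. Their changes below thus describe size against the spread between arrays and are no independent evidence for the choice.

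The cells came from an A2lox embryonic stem cell line, labelled with the strain C57BL/6, which carries human RUNX1-ETO with an HA tag under a tetracycline-responsive promoter while its own RUNX1 is intact. RUNX1-ETO is the fusion protein made by the t(8;21) translocation of acute myeloid leukaemia, and it is produced when doxycycline (Dox) is given. Uninduced controls carried the same transgene and received no Dox. HE cells (haemogenic endothelium, KIT+Tie2+CD41−), HE2 cells (KIT+Tie2+CD41+) and progenitors (KIT+Tie2−CD41+) were sorted on day 2 of blast culture, with 0.1 μg per ml Dox from day 1 in the induced cultures, and myeloid progenitors were grown in expansion medium with cytokines and induced for 12 h. The line was made from picked colonies, so that all groups share 1 genetic background. There were 3 arrays per group, titled as biological replicates, except 2 arrays each of uninduced and induced progenitors. The source name of induced myeloid progenitor array 3 calls it a technical replicate, so that this group may hold only 2 distinct samples. The labels do not say whether replicates came from separate cultures, and the spread between arrays may be technical. P values use a spread per gene that is pooled over the arrays of all groups, and not that of the groups compared alone.

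Hand1, Hand2 and Tbx20 encode transcription factors of the early heart field, where the HAND proteins pattern the ventricles and TBX20 guides chamber formation. Mybpc3 (cardiac myosin-binding protein C), Myl7 (the atrial regulatory myosin light chain), Tnnt2 (cardiac troponin T) and Actc1 (cardiac alpha-actin) build the sarcomere, and Myzap encodes a protein of the intercalated disc that joins cardiomyocytes. Acta2 (smooth muscle alpha-actin) and Tagln (transgelin, SM22 alpha) are cytoskeletal genes of smooth muscle that are also transcribed in early mesoderm, the embryonic heart and activated fibroblasts. Heart, endothelium and blood arise from neighbouring mesoderm, and serum response factor, which binds CArG boxes, and MEF2 factors are known regulators of many contractile genes.

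Between 48.8 and 78.4% of the spots on an array were well above background and no spot was saturated. Levels are normalized log2 intensities, in which a step of 1 is a doubling, and they compare arrays for a given probe and not probes with each other. A gene was called when its change reached 2-fold with P no higher than 0.001 in a limma fit over 22 arrays, and the adjusted P values given cover all genes tested. The probe for Runx1t1, the mouse gene for ETO, was brighter on all induced arrays than on all uninduced arrays of the same stage, with log2 changes from 1.24 in HE to 3.96 in progenitors, and whether it detects the transgene was not tested. In HE its change (SE 0.335, adjusted P = 0.0155 in limma) was not called. Arrays lay on 3 slides, of which the third held all myeloid progenitor arrays, induced progenitor array 2 and an additional uninduced progenitor array that stayed out of the fit. No HE or HE2 array lay on that slide, so that the levels of myeloid progenitors are given beside those of the earlier stages without a test.

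The promoters of the members whose changes follow are shown first, because several of them hold binding motifs of known muscle regulators. RefSeq promoter sequences of build GRCm38.p6 were found for 8 of the 10 members, Tnnt2 with 2 annotated starts, and Hand1 and Tagln had no entry. Printed here are the 250 bases before the annotated start on the strand of the gene. They cover chr2:114052876-114053125 on the minus strand for Actc1, chr19:34255374-34255623 on the minus strand for Acta2 and chr11:5898783-5899032 on the minus strand for Myl7. They cover chr2:91117894-91118143 on the plus strand for Mybpc3, chr1:135836084-135836333 on the plus strand for Tnnt2 (the first annotated start) and chr8:57320733-57320982 on the plus strand for Hand2. Capitals mark, on either strand, a CArG box in which at most 1 base of the core was other than A or T, a MEF2 box, the GATA motif AGATAA and the RUNX motifs TGTGGT and TGCGGT, wherever they occur in the window.
Actc1: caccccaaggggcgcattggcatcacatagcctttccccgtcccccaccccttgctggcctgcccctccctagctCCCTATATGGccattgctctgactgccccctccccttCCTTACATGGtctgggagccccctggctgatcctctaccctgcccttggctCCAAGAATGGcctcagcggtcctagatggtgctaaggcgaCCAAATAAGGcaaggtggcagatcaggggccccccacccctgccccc
Myl7: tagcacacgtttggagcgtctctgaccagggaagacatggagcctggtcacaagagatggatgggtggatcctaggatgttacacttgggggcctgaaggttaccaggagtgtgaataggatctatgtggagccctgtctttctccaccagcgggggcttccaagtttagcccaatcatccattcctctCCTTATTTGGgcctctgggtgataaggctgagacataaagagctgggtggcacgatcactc
Acta2: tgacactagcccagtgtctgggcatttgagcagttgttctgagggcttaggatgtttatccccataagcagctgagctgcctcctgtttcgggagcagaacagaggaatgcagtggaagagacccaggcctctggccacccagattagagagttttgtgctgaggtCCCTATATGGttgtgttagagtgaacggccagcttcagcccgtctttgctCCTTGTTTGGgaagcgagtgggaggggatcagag
Mybpc3: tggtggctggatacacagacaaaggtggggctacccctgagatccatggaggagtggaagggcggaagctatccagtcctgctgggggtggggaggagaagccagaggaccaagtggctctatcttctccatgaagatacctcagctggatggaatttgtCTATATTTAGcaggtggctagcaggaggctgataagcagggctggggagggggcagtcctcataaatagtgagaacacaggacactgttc
Tnnt2: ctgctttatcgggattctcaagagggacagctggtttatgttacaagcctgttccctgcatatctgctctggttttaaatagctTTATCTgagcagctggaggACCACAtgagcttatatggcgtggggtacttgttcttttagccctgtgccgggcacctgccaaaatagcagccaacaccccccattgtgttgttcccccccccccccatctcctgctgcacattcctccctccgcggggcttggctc
Hand2: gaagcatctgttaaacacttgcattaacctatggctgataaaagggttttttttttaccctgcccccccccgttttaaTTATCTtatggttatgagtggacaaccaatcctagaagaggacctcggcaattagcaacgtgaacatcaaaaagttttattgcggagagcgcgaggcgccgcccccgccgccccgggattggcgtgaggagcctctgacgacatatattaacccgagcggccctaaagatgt

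Actc1 held 4 CArG boxes or near matches, the closest to the start being CCAAATAAGG at 47 to 38 bases before it. Acta2 held 2 near matches, CCCTATATGG at 84 to 75 and CCTTGTTTGG at 34 to 25 bases before the start, and Myl7 held the box CCTTATTTGG at 61 to 52. A CArG box with at most 1 such mismatch was present in 3 of the 9 member promoters and in 8.59% of the 32851 promoters of this length, and a box without mismatch in 2 and in 1.47%. The MEF2 box CTATATTTAG of Mybpc3, at 90 to 81 bases, was the only one in the members, against 2.92% of all promoters. TGTGGT occurred in 1 member promoter, the first of Tnnt2 on the opposite strand (14% of all promoters), TGCGGT in none (5.1%), and AGATAA in the first of Tnnt2 and in Hand2 (9.99%). No motif of the list was found in the windows of Tbx20, Myzap and the second start of Tnnt2. The CArG boxes without mismatch are counted under both versions of that motif, and a match is a description of the sequence and not a binding site.

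**Figure D1:**
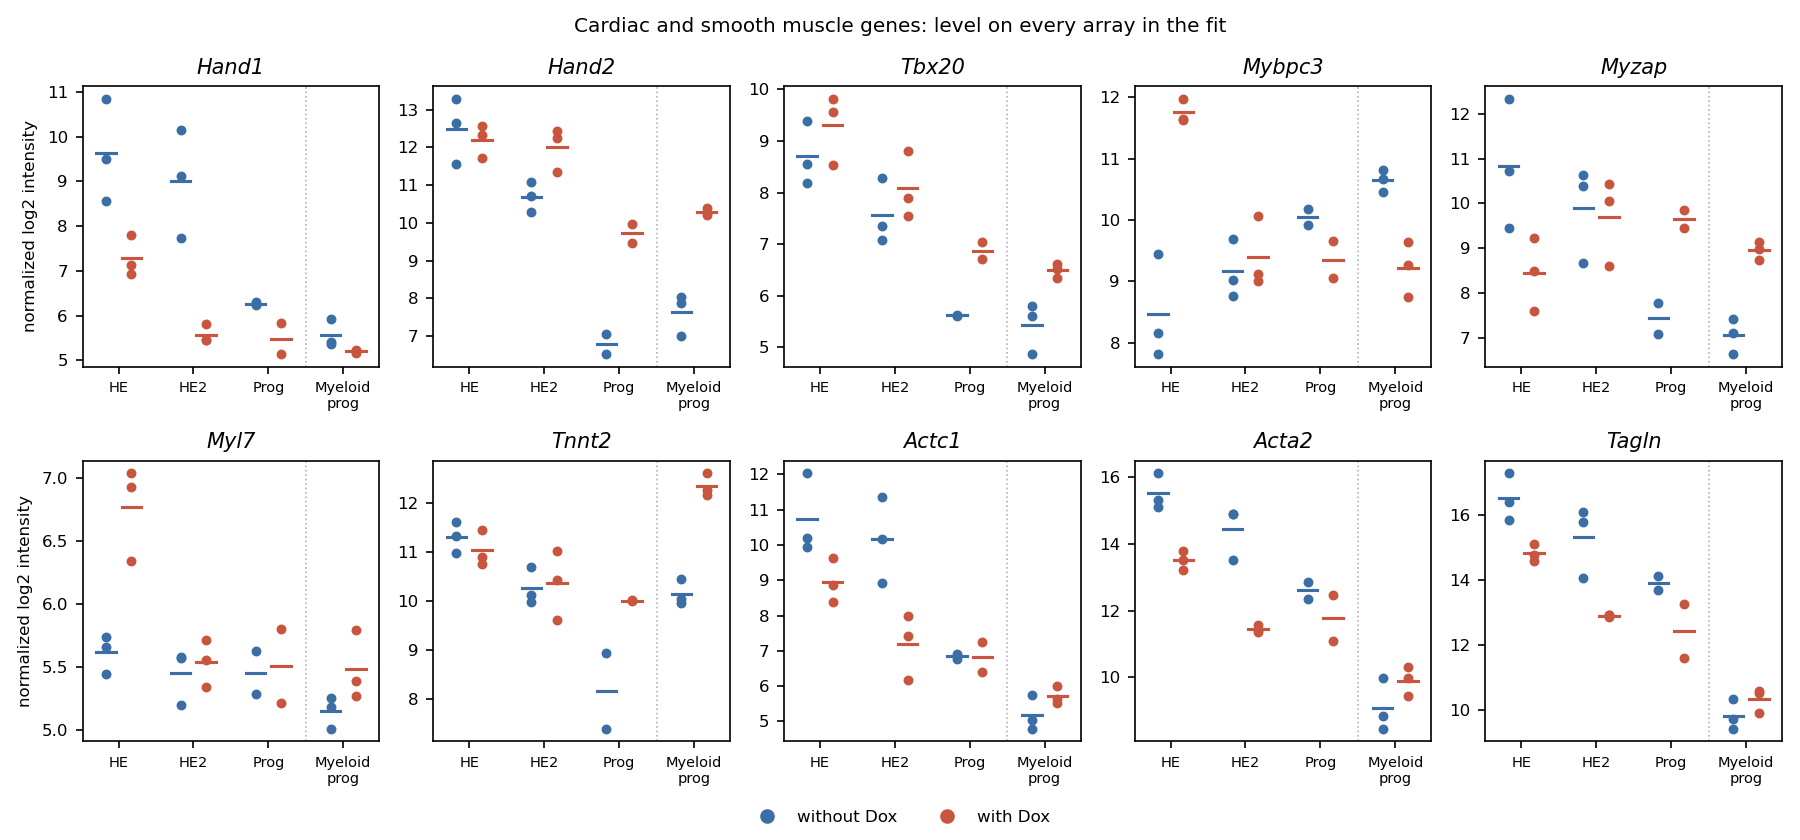
Normalized log2 intensity (y axis) of each member on every array in the fit, by stage (x axis) and without or with Dox; points are arrays and bars are group means, the dotted line sets apart the myeloid progenitors, whose arrays all lay on the third slide, and each panel has its own scale. Without Dox, Acta2 and Tagln step down from HE to myeloid progenitors and Mybpc3 runs upward from 8.47 in HE to 10.65 in myeloid progenitors, and Hand2 and Tnnt2 are higher with Dox in progenitors and myeloid progenitors.

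Without Dox, most members were brightest in HE and dimmest in progenitors or myeloid progenitors. Acta2 had a mean level of 15.52 in HE (SD 0.529, n = 3), followed by 14.44 in HE2 (SD 0.804, n = 3), 12.61 in progenitors (SD 0.347, n = 2) and finally 9.09 in myeloid progenitors (SD 0.784, n = 3). Tagln followed the same order, from 16.50 (SD 0.723, n = 3) in HE to 9.82 (SD 0.463, n = 3) in myeloid progenitors. Fewer cells of a type and less RNA per cell cannot be told apart in such bulk samples. Mybpc3 ran the other way, with mean levels of 8.47 (SD 0.856, n = 3), 9.16 (SD 0.477, n = 3), 10.05 (SD 0.185, n = 2) and 10.65 (SD 0.178, n = 3) from HE to myeloid progenitors. Tnnt2 was lowest in progenitors, at 8.17 (SD 1.09, n = 2), and lay at 10.14 (SD 0.265, n = 3) in myeloid progenitors and 10.26 (SD 0.377, n = 3) in HE2. Myl7 was dim throughout, well above background on 11 of 23 arrays and on none of the 6 myeloid progenitor arrays, and Hand1 was not well above background on any induced myeloid progenitor array.

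Induction in HE moved the members in opposite directions. Mybpc3 and Myl7 rose, Hand1 and Acta2 fell, and the other 6 did not pass the test. Among all genes, 7.09% were called in HE, 4.7% higher and 2.39% lower. The 10 members had a median log2 change of -0.99, against -0.01 over all genes, and in 5 members all induced arrays lay below the uninduced range (10.9% of all genes), whereas in 2 they lay above it (14.1%).

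Mybpc3, the sarcomere protein that links myosin and actin filaments, was at 8.15, 9.44 and 7.82 on uninduced HE arrays 1, 2 and 3 and at 11.63, 11.97 and 11.65 on the induced ones. All induced arrays were above all uninduced ones, with a log2 change of 3.28 (9.71-fold, SE 0.37, adjusted P = 7.11e-06). Myl7 was at 5.74, 5.45 and 5.66 without and at 6.93, 6.34 and 7.04 with Dox, again without overlap, a log2 change of 1.16 (SE 0.213, adjusted P = 0.000912). Uninduced array 2 was not well above background for Myl7, and the change was below 2-fold with a larger offset in the background correction (0.80) and in the deposited values (0.82).

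Hand1 was at 9.50, 10.85 and 8.56 on the uninduced and at 7.14, 7.80 and 6.92 on the induced HE arrays. The groups did not overlap, and the log2 change was -2.35 (SE 0.505, adjusted P = 0.00323). Acta2 was at 15.11, 16.11 and 15.32 without Dox and at 13.78, 13.52 and 13.23 with Dox, a log2 change of -2.01 (SE 0.434, adjusted P = 0.00328) without overlap. Uninduced array 2 was the brightest of its group for Hand1, Acta2, Tagln, Actc1 and Mybpc3. Without it, the changes of Hand1 (-1.74) and Acta2 (-1.71) no longer passed the P threshold, nor did those of both genes without induced array 3 (-2.17 and -1.87) or that of Hand1 without induced array 1 (-2.27).

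Among the members not called in HE, Myzap, Tagln and Actc1 also lay lower on every induced array. Myzap was at 10.72, 9.45 and 12.34 without and at 9.24, 7.61 and 8.50 with Dox (log2 change -2.38, SE 0.632, adjusted P = 0.0138), and it passed the threshold without uninduced array 2 (-3.08) or induced array 1 (-2.78). The log2 change was -1.68 for Tagln (SE 0.478, adjusted P = 0.0213) and -1.77 for Actc1 (SE 0.59, adjusted P = 0.0496). Hand2 (-0.29), Tnnt2 (-0.27) and Tbx20 (0.59) overlapped between the groups. Within slide 1 the change was 2.83 for Mybpc3, 1.34 for Myl7, -3.03 for Hand1 and -1.83 for Acta2. Within slide 2 it was 3.99, 1.03, -1.20 and -1.95 in the same order.

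**Figure D2:**
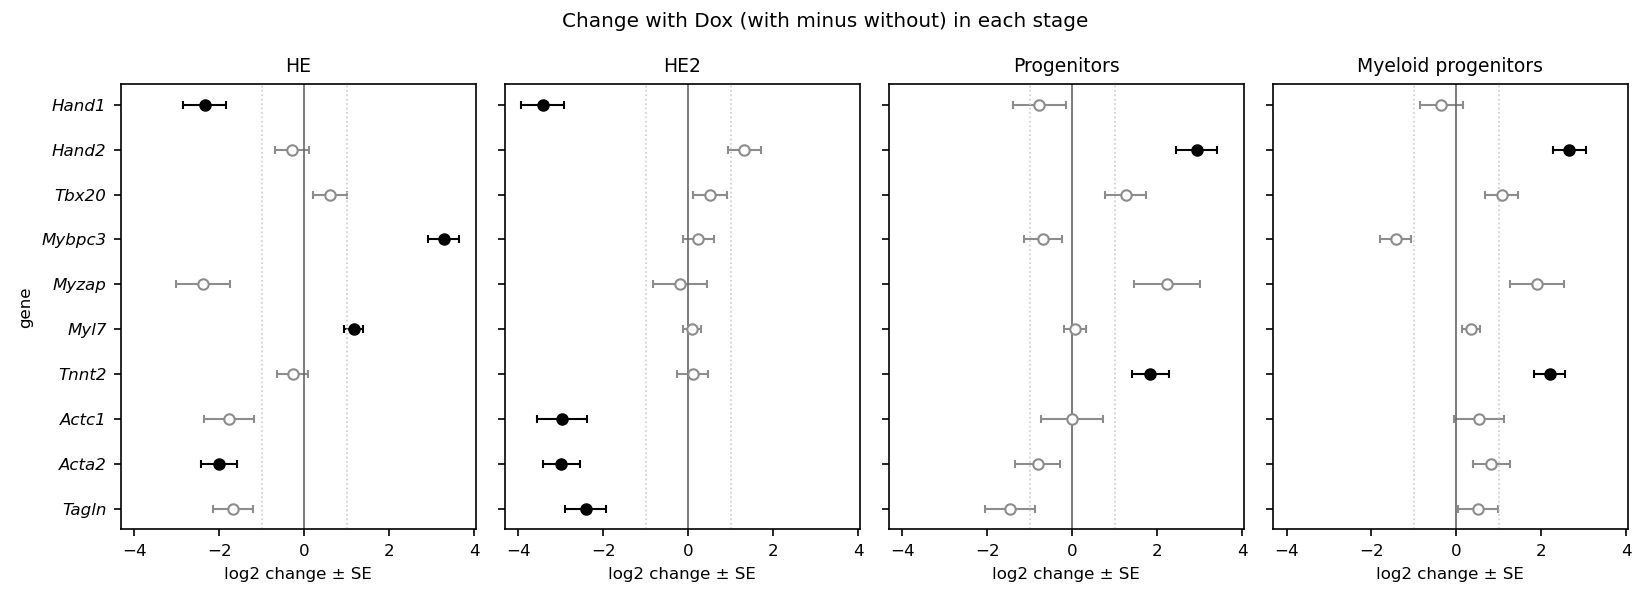
Log2 change with Dox (x axis, with minus without, bars are SE) of each member (y axis) in the 4 stages; filled points were called (2-fold and P no higher than 0.001), and dotted lines mark a 2-fold change. The called falls lie in HE and HE2, Hand1 and Acta2 in both, and the called rises of Hand2 and Tnnt2 lie in progenitors and myeloid progenitors.

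In HE2, 4 members fell with Dox and none rose. The falls were those of Hand1, both actins and Tagln, in a stage in which 7.22% of all genes were called, 5.17% higher and 2.05% lower. The median log2 change of the members was -0.06, against -0.03 over all genes, since the other 6 members lay close to or above 0. No induced array reached the uninduced range for 4 members (15.2% of all genes), and Hand2 lay higher on every induced array (16.9%).

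Hand1 was at 9.12, 10.15 and 7.74 on uninduced and at 5.81, 5.46 and 5.45 on induced HE2 arrays, a log2 change of -3.43 (10.8-fold, SE 0.505, adjusted P = 0.000132). The last of the induced arrays was not well above background. Acta2 was at 14.91, 14.91 and 13.52 without and at 11.38, 11.42 and 11.56 with Dox, a log2 change of -2.99 (7.95-fold, SE 0.434, adjusted P = 0.000111). Uninduced array 3 was the lowest of its group for both genes and still lay above all induced arrays.

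Actc1 was at 10.18, 11.35 and 8.94 without and at 6.17, 7.98 and 7.42 with Dox, a log2 change of -2.97 (7.81-fold, SE 0.59, adjusted P = 0.00173). Without induced array 1, its lowest, the change was -2.46 and missed the P threshold. Tagln was at 15.79, 16.10 and 14.06 without and at 12.92, 12.84 and 12.92 with Dox, a log2 change of -2.42 (5.35-fold, SE 0.478, adjusted P = 0.00163). The induced arrays of Tagln were close together and below all uninduced arrays, of which array 3 was the lowest. Hand2 was at 10.29 and 11.08 on arrays 1 and 2 and between them on array 3 without and at 11.35, 12.43 and 12.25 with Dox, which at a log2 change of 1.32 (SE 0.392, adjusted P = 0.0261) was not called.

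The changes of Mybpc3 (0.23), Myl7 (0.09), Tnnt2 (0.10), Myzap (-0.20) and Tbx20 (0.52) in HE2 had overlapping groups. Within slide 1 the change was -3.82 for Hand1, -4.59 for Actc1, -3.53 for Acta2 and -3.02 for Tagln. Within slide 2, which held uninduced array 3, it was -2.28, -1.24, -2.02 and -1.18 in the same order, less than on slide 1 for all 4 genes.

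Markers of other cell types moved in HE and HE2 as well, where 4.7% and 5.17% of all genes were called higher and 2.39% and 2.05% lower. Among 9 tested mesenchymal and fibroblast markers, Col1a1 (a collagen chain) and Pdgfrb (a receptor of mural cells) fell in both stages, with log2 changes of -2.08 and -1.83 in HE and of -3.25 and -2.57 in HE2, while Col3a1, another collagen chain, rose by 1.83 in HE. The mean level of the 12 genes of that list was 7.07 to 7.43 on uninduced and 6.17 to 6.67 on induced HE2 arrays, with 8 to 11 and 7 to 9 of them well above background. In HE it was 7.18 to 7.99 without and 7.13 to 7.33 with Dox. Of 5 tested epithelial and endoderm markers, 2 fell in HE and 3 in HE2, with the keratin genes Krt8 (-3.70) and Krt18 (-2.67) changing most in HE2. The mean level of these 8 genes was 7.98 to 8.55 on uninduced and 6.87 to 7.22 on induced HE2 arrays, with 7 and with 5 to 6 of them well above background. Of 8 blood markers, 3 fell in HE2, with Spi1 (PU.1, -2.73) and Csf1r (a macrophage growth factor receptor, -1.77) changing most, and Gata1 (an erythroid factor) rose by 2.07. Their mean level was 10.87 to 11.27 on uninduced and 9.71 to 10.44 on induced HE2 arrays, without overlap, and in HE only Itga2b, which encodes the sort marker CD41, was called (-3.21, adjusted P = 0.00205). Of 8 endothelial markers, 3 rose in HE2, among them Cldn5 (a tight junction protein, 3.20) and Sox17 (a transcription factor of arterial endothelium, 1.42), and Cldn5 rose in HE (2.34). The mean endothelial level was 11.43 to 12.25 on uninduced and 12.96 to 13.37 on induced HE2 arrays. The part of these cell types and of the sort in the members' changes was not tested.

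**Figure D3:**
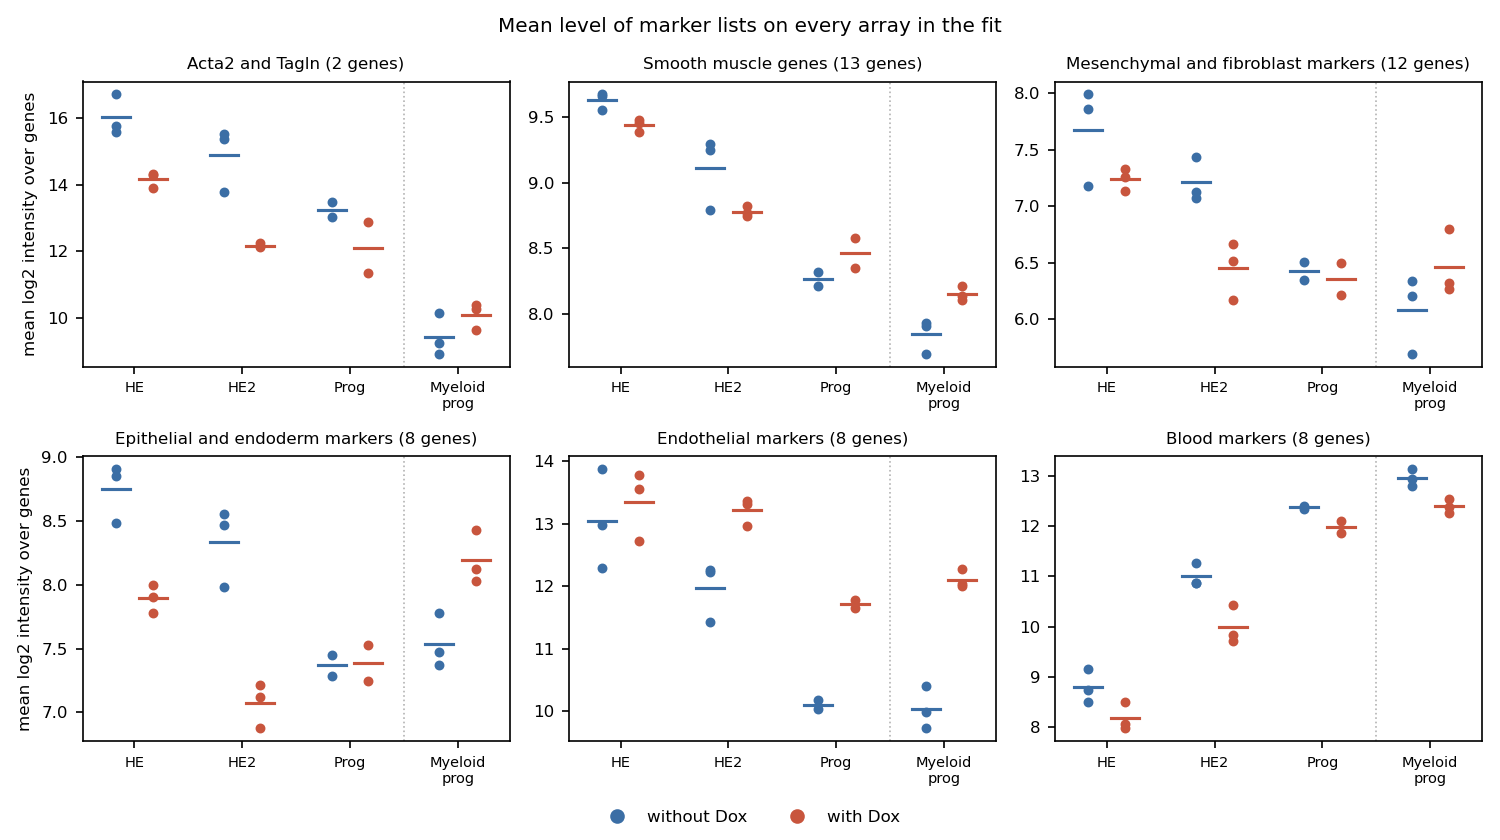
Mean log2 intensity (y axis) over the genes of each list on every array in the fit, by stage (x axis) and without or with Dox; points are arrays and bars are group means. The mean of Acta2 and Tagln and the means of the mesenchymal and the epithelial lists are lower on all induced than on all uninduced HE2 arrays, and the endothelial list is higher with Dox in HE2, progenitors and myeloid progenitors.

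In progenitors, no member was called lower and Hand2 and Tnnt2 were called higher, where 3.73% of all genes were called, 3.03% higher and 0.704% lower. Hand2 was at 6.52 and 7.06 on uninduced arrays 1 and 2 and at 9.97 and 9.47 on the induced arrays, a log2 change of 2.92 (7.59-fold, SE 0.48, adjusted P = 0.000931). Tnnt2 was at 8.94 and 7.40 without and at 9.99 and 10.02 with Dox, a log2 change of 1.84 (3.57-fold, SE 0.442, adjusted P = 0.0177). Neither gene overlapped between the groups, and the uninduced arrays of Tnnt2 lay far apart. With slide as a block the change of Tnnt2 was 1.53 and not called, and the call was also lost without uninduced array 2 (1.07), induced array 1 (1.85) or induced array 2 (1.82), where the lone array left in a group is assumed to vary like the other groups.

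Myzap and Tbx20 also lay higher on both induced progenitor arrays without being called. Myzap was at 7.77 and 7.10 without and at 9.45 and 9.86 with Dox (log2 change 2.22, SE 0.774, adjusted P = 0.109). Tbx20 was at 5.62 and 5.61 without and at 6.72 and 7.03 with Dox (log2 change 1.26, SE 0.487, adjusted P = 0.154). In all, 4 members lay higher without overlap (22.6% of all genes) and 3 lower (26.3%), the latter being Hand1 (-0.78), Mybpc3 (-0.69) and Tagln (-1.47). Induced array 2 was not well above background for Hand1, and it lay on slide 3 with 48.8% of its spots well above background. The additional uninduced progenitor array, kept out of the fit, was at 12.47 for Tagln, below induced array 1 at 13.26. Actc1 (-0.01) and Acta2 (-0.81) overlapped. The median of the members was 0.02, against -0.04 over all genes, and within slide 1, the only slide with both groups, the change was 3.44 for Hand2 and 1.05 for Tnnt2.

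The same 2 genes were called in myeloid progenitors, where all 6 arrays shared a slide and 6.31% of all genes were called, 5.13% higher and 1.18% lower. Hand2 was at 7.003, 8.04 and 7.87 without and at 10.29, 10.21 and 10.39 with Dox, a log2 change of 2.66 (6.31-fold, SE 0.392, adjusted P = 0.000114). Tnnt2 was at 10.45, 10.03 and 9.95 without and at 12.59, 12.16 and 12.25 with Dox, a log2 change of 2.19 (4.56-fold, SE 0.361, adjusted P = 0.000341). The induced arrays of both genes were above all uninduced ones, and both calls held without each of the 6 arrays in turn. Without induced array 3, the possible technical replicate, the change was 2.61 for Hand2 and 2.23 for Tnnt2. The deposited values of induced arrays 2 and 3 were less like those computed here (r of 0.989 and 0.991) than on the other myeloid progenitor arrays (0.997). Whether the 2 arrays carry the same numbers in both sets was not tested. Leaving out any of the 6 arrays gave 2.34 to 2.86 for Hand2 and 2.06 to 2.34 for Tnnt2.

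Myzap was at 6.64, 7.42 and 7.12 on uninduced and at 9.15, 8.73 and 8.99 on induced myeloid progenitor arrays, a log2 change of 1.90 (SE 0.632, adjusted P = 0.0535) that was not called, although the groups lay apart. The SE is pooled over all groups, and the SD of Myzap was 0.390 and 0.209 in these groups and 1.45 in uninduced HE. Mybpc3 was at 10.81, 10.46 and 10.67 without and at 8.74, 9.64 and 9.27 with Dox, all induced arrays below the uninduced ones. Its log2 change was -1.43 (SE 0.37, adjusted P = 0.0135), which missed the P threshold narrowly and passed it without induced array 2 (-1.64) and with the deposited values (-1.39). Tbx20 lay higher (1.06, SE 0.397, adjusted P = 0.0877), at 6.51, 6.35 and 6.62 with Dox, against 5.80, 5.61 and 4.87 without, of which the last 2 were not well above background. In all, 5 members, Myl7 among them at background levels, lay higher without overlap (23.8% of all genes) and 2 lower (22.5%), and Actc1 (0.53), Acta2 (0.82) and Tagln (0.50) overlapped. The 2 lower ones were Mybpc3 and Hand1, and Hand1 was well above background on 1 uninduced and 0 induced arrays. Endothelial markers were higher beside these members, with 6 of 8 called in myeloid progenitors and 3 of 8 in progenitors. Their mean level was 9.72 to 10.40 on uninduced and 11.999 to 12.28 on induced myeloid progenitor arrays, with all 8 well above background on every array. In progenitors it was 10.03 to 10.18 without and 11.65 to 11.77 with Dox. The keratin gene Krt19 rose by 2.14 in progenitors and by 4.13 in myeloid progenitors, and Pdgfrb fell by 1.37 in the latter. Of the blood markers, Spi1 alone was called in progenitors (-2.23), and their mean level was 12.80 to 13.13 on uninduced and 12.26 to 12.54 on induced myeloid progenitor arrays. The part of these markers in the members' changes was not tested.

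Between HE and HE2 cells, Hand2 was the only member called without Dox, where 5.07% of all genes were called, 2.39% higher and 2.67% lower. Its level went from 11.56, 12.63 and 13.29 in HE to 10.29 and 11.08 on HE2 arrays 1 and 2, with array 3 between them, without overlap (log2 change -1.80, SE 0.392, adjusted P = 0.00551). The call was lost without HE array 2 (-1.73), HE array 3 (-1.41) or HE2 array 1 (-1.60), and within slides 1 and 2 the change was -1.41 and -2.59. Acta2 and Tnnt2 also lay lower on all HE2 arrays, with log2 changes of -1.07 (adjusted P = 0.139) and -1.05 (adjusted P = 0.0747), so that 3 members had groups apart and lower, against 13.3% of all genes. The median of the members was -0.99, against 0.03 over all genes. The fit did not pair these arrays, although their replicate numbers were taken to pair uninduced HE and HE2 cells. Compared number by number, Hand1, Tbx20, Myzap, Myl7 and Tagln also lay lower on every HE2 array, and Mybpc3 lay higher. A fit of these pairs alone was not run, and with the replicate number as a block the call of Hand2 held.

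With Dox, 4 members were lower in HE2 than in HE and none was higher, where 3.1% of all genes were called, 1.62% higher and 1.47% lower. Mybpc3 went from 11.63, 11.97 and 11.65 to 9.12, 9.01 and 10.06, a log2 change of -2.35 (5.11-fold, SE 0.37, adjusted P = 0.000679). Myl7 went from 6.93, 6.34 and 7.04 to 5.56, 5.71 and 5.34, a log2 change of -1.23 (SE 0.213, adjusted P = 0.00147). Both genes, which had been raised by Dox in HE, lay lower on every induced HE2 array. Since Myl7 passed the filter on low values only through induced HE arrays, its call here is not independent of that filter.

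The smooth muscle genes were lower in induced HE2 cells too. Acta2 went from 13.78, 13.52 and 13.23 to 11.38, 11.42 and 11.56 (log2 change -2.05, SE 0.434, adjusted P = 0.00757), and Tagln from 14.77, 15.10 and 14.59 to 12.92, 12.84 and 12.92, a log2 change of -1.92 (SE 0.478, adjusted P = 0.0221). Neither overlapped, and 6 members in all lay lower without overlap, against 7.37% of all genes. The call of Tagln was lost without any of the 6 arrays (-1.78 to -2.04) and with scaling to the 75th percentile (-1.84), and its P also missed the threshold once the additional progenitor array was added to the fit, and that of Acta2 without HE array 1 (-1.92). Hand1 (-1.71, adjusted P = 0.0554) and Actc1 (-1.76, adjusted P = 0.0951) had groups apart and were not called. The median of the members was -1.47, against 0.01 over all genes. Within slide 1 the change was -2.51 for Mybpc3, -1.38 for Myl7, -2.41 for Acta2 and -1.85 for Tagln, and within slide 2 it was -2.27, -1.16, -1.88 and -1.96.

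**Figure D4:**
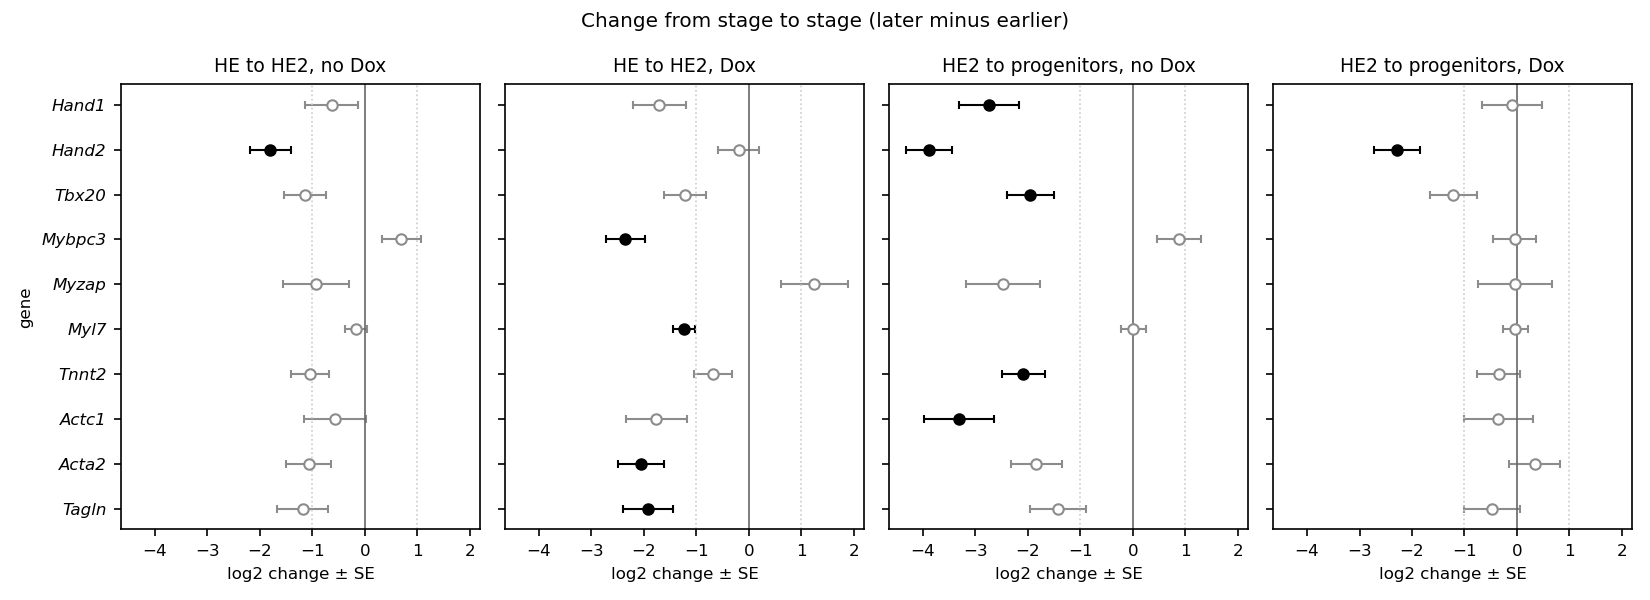
Log2 change from a stage to the next (x axis, later minus earlier, bars are SE) of each member (y axis), without and with Dox; filled points were called (2-fold and P no higher than 0.001), and dotted lines mark a 2-fold change. From HE2 to progenitors 5 members are called lower without Dox and Hand2 with Dox.

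From HE2 to progenitors without Dox, 5 members fell, where 5.39% of all genes were called, 1.78% higher and 3.62% lower. All 3 transcription factors were among them, with log2 changes of -3.89 for Hand2 (14.9-fold, SE 0.438, adjusted P = 1.13e-05), -2.74 for Hand1 (SE 0.565, adjusted P = 0.00366) and -1.95 for Tbx20 (SE 0.444, adjusted P = 0.00794). Of the sarcomere genes, Actc1 changed by -3.31 (SE 0.66, adjusted P = 0.00277) and Tnnt2 by -2.09 (SE 0.403, adjusted P = 0.00214). Hand2 was at 6.52 and 7.06 in progenitors and at 10.29 to 11.08 in HE2, and Actc1 at 6.78 and 6.91 against 8.94 to 11.35. Both progenitor arrays lay below all HE2 arrays for 7 members (20.3% of all genes), which add Myzap (-2.47, adjusted P = 0.0358) and Acta2 (-1.84, adjusted P = 0.0217) to the 5. Mybpc3 lay above on both (0.88, adjusted P = 0.265).

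With only 2 progenitor arrays, several of these calls rested on all of them. Without progenitor array 1, the changes of Hand1 (-2.78), Tbx20 (-1.96) and Actc1 (-3.25) missed the P threshold, and without progenitor array 2 so did those of Hand1 (-2.71), Tbx20 (-1.95), Actc1 (-3.38) and Tnnt2 (-1.32). Tbx20 was also lost without HE2 array 2 (-1.60), where Myzap was called (-3.08), while Acta2 (-2.30) and Tagln (-2.05) were called without HE2 array 3. Within slide 1 the change was -4.16 for Hand2, -3.34 for Hand1, -3.99 for Actc1, -2.19 for Tbx20 and -1.46 for Tnnt2. Within slide 2 it was -3.64, -1.51, -2.03, -1.47 and -2.57.

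With Dox, Hand2 was the only member called between HE2 and progenitors, where 7.36% of all genes were called, 2.02% higher and 5.34% lower. It went from 11.35, 12.43 and 12.25 to 9.97 and 9.47, a log2 change of -2.29 (SE 0.438, adjusted P = 0.00149), without overlap. The call was lost with slide as a block (-1.70) and without progenitor array 2 (-2.04), and within slide 1 the change was -1.38. Tbx20 also lay lower on both progenitor arrays (-1.21, adjusted P = 0.0811), and the other 8 members overlapped, with log2 changes between -0.47 for Tagln and 0.34 for Acta2. The 2 members without overlap compare with 20.8% of all genes, and the median of the members was -0.22, against -0.05.

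The response to Dox itself was compared between stages with an interaction term, which shares its arrays with the comparisons above. Between HE and HE2 it was called for Mybpc3 alone, with a difference of -3.05 (SE 0.524, adjusted P = 0.00989), where 1.34% of all genes were called, 0.625% higher and 0.71% lower. The log2 change of Mybpc3 with Dox was 3.28 in HE and 0.23 in HE2, and the call held without any of the 12 arrays. For Myl7 the difference was -1.07 (SE 0.301, adjusted P = 0.123), which was called with the replicate number as a block and without induced HE array 2 (-1.28). For Hand2 it was 1.61 (SE 0.554, adjusted P = 0.262), called without uninduced HE array 1 (2.08). The falls of Hand1, Actc1, Acta2 and Tagln were larger in HE2 by 0.74 to 1.19 on the log2 scale and differed between the stages by less than the test could call, with adjusted P from 0.788 to 0.933.

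Between HE2 and progenitors, no member passed the interaction test in limma, where 0.645% of all genes were called, 0.237% higher and 0.408% lower. The difference was 2.96 for Actc1 (SE 0.933, adjusted P = 0.288), 2.65 for Hand1 (SE 0.799, adjusted P = 0.268) and 2.18 for Acta2 (SE 0.685, adjusted P = 0.286), all 3 called without uninduced HE2 array 3 (3.57, 3.28 and 2.64). Myzap had a difference of 2.42 (adjusted P = 0.532), Tnnt2 of 1.74 (adjusted P = 0.335; 2.51 and called without uninduced progenitor array 1) and Hand2 of 1.60 (adjusted P = 0.474). Thus, the fall of Hand1 and of the actins in HE2 and the small changes in progenitors were not shown to differ by this test.

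Other genes of the same pathways moved in both directions with Dox in HE and HE2. Among 13 tested cardiac transcription factors outside the members, 2 were higher and 2 lower with Dox in HE, 2 and 1 in HE2, 2 and 0 in progenitors and 3 and 0 in myeloid progenitors. Over all genes, 4.7% were called higher and 2.39% lower in HE, and 5.17% and 2.05% in HE2. The shares were 3.03% and 0.704% in progenitors and 5.13% and 1.18% in myeloid progenitors, and they also apply to the lists that follow. Hopx, a homeodomain-only cofactor, rose in all 4 stages by 1.58 to 2.45 on the log2 scale. Tbx5, a T-box factor of the heart, was also called higher in all 4 but was dim without Dox. Tbx5 passed the filter on low values only through induced arrays, so that its calls, counted above, are not independent of the filter. In HE2 no uninduced array was well above background for Tbx5, which was at least 2.66-fold higher with Dox (adjusted P = 0.000367), taking for each dim array the higher of its own level and the lowest level measured above background. In HE (1.61) and myeloid progenitors (1.59) only 1 of 3 uninduced arrays measured Tbx5. Smarcd3, a cardiac subunit of the BAF chromatin remodelling complex, fell by 1.88 in HE and by 1.41 in HE2. Gata6, a zinc finger factor of heart and endoderm, fell by 1.31 in HE and rose by 1.16 in myeloid progenitors.

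Of 15 tested cardiac contractile and calcium genes, 2 were higher and 1 lower with Dox in HE and in HE2. Tnni3, cardiac troponin I, rose in all 4 stages, by 1.89 (HE), 2.43 (HE2), 3.22 (progenitors) and 2.82 (myeloid progenitors), with 2 of 3 uninduced arrays well above background in HE and in HE2. Myl2, the ventricular counterpart of Myl7, was called higher by 1.66 in HE and 1.17 in HE2. In these stages 2 of 3 and 1 of 3 uninduced arrays were well above background for Myl2. Myl2 passed the filter on low values only through induced HE and HE2 arrays, so that its calls are not independent of the filter. Myh7, a slow myosin heavy chain, fell by 1.81 in HE, and Myom1 of the M band by 1.54 in HE2. In progenitors 2 genes were higher, Tnni3 and Tnni1 (2.79), and in myeloid progenitors Tnni3 alone, and no gene of the list was lower in either.

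Of 10 tested smooth muscle genes outside the members, none was called with Dox in HE or in progenitors. In HE2, 2 fell together with Acta2 and Tagln, namely Cnn1 (calponin, -2.48) and Myl9 (a smooth muscle myosin light chain, -2.18). In myeloid progenitors 2 rose, Cald1 (caldesmon, 1.23) and Smtn (smoothelin, 1.04). These 10 genes had a median of -0.70 (HE), -0.38 (HE2), 0.02 (progenitors) and 0.34 (myeloid), beside all-gene medians between -0.04 and -0.01. Of 9 skeletal muscle genes only 2 were tested, and Acta1, skeletal alpha-actin, fell by 2.01 in HE2.

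Over the 22 arrays the members did not move as a block. Their pairwise Pearson correlations had a median of 0.470 over 45 pairs, with a highest value of 0.987 for Acta2 and Tagln and a lowest of -0.741 for Mybpc3 and Myzap. The arrays share stage, Dox and slide, so that these values describe the design as much as the genes. Among 14910 other genes, those whose level was most like the mean of the members, each centred and scaled, were Pakap (Pearson's r = 0.976), Cryab (0.961), Vcam1 (0.959), Bmp6 (0.957) and Itga7 (0.955).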

How the data were processed

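Spot brightness was deposited by the authors as the median intensity of each spot and of its local background, from 1-colour Agilent SurePrint G3 Mouse arrays, without normalization between arrays. A second deposited set holds log2 values for each array, background corrected and quantile normalized. On most arrays these correlated at 0.997 with the values computed here. On induced arrays 2 and 3 the correlation was 0.982 and 0.982 in HE, 0.973 and 0.973 in HE2, and 0.989 and 0.991 in myeloid progenitors. Whether these arrays carry the same numbers in both sets was not tested. Per the file headers Feature Extraction was version 10.7.3.1, while the labels name 10.7.1.1. For the results here, control spots (3671) and outlier spots were dropped, normexp with an offset of 16 removed the background, and quantile normalization ran over 23 arrays. Probes were named through RefSeq accessions. A gene was tested if its log2 value reached 6.5 on 1 or more arrays. The model in limma 3.58.1 (R 4.3.3) had a mean per group, 22 arrays and 14 residual degrees of freedom, and Benjamini-Hochberg adjustment ran over all tested genes. A further uninduced progenitor array, which the labels call a technical replicate, was normalized with the others and kept out of the model. Induced myeloid progenitor array 3 is a technical replicate by its source name and was kept as replicate 3.

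The members and all gene lists were chosen with earlier results of these data known. Text names the 10 members, at most the 2 largest called changes per direction from each other list, the sort marker Itga2b, and the 5 genes most correlated with the members. Of the uninduced arrays, those of HE and HE2 sharing a replicate number in the labels deviated together from their group means (r of 0.394, 0.795 and 0.608 across genes), so these numbers were taken to pair them. The main model did not use this pairing, which entered only the alternative with a replicate block. Alternatives covered the background correction and its offset, the scaling, the deposited values, filters, probe choice, call thresholds, which groups entered the model, slide or replicate blocks, the further array, and leaving out each array. The model was also run on simulated arrays with independent noise per gene and without slide or replicate effects. That run says nothing about such effects in these arrays. The number of arrays limits the precision, and 0 columns of values lacked an array.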

Additional observations from a re-analysis of the deposited data

Results flagged for a closer look

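The response of Mybpc3 to Dox differed between HE and HE2 cells by an interaction term, with a difference of -3.05 on the log2 scale (SE 0.524, adjusted P = 0.00989 in limma). With Dox, Mybpc3 rose by 3.28 in HE, with 3 of 3 induced arrays above all uninduced ones, and its level changed by 0.23 in HE2, where the groups overlapped. Within slide 1 the change with Dox was 2.83 in HE and -0.24 in HE2, and within slide 2 it was 3.99 and 0.77. No group held more than 3 arrays, so that arrays far from the rest of a group were not tested for.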

How the results depend on the processing

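Of 100 member changes, 24 were called, and none of these changed direction under any alternative. Without each array in turn, 12 of the 24 calls held and 12 were lost at least once. A model of only the groups compared lost 11, an offset of 50 lost 3, the deposited values 3, 75th percentile scaling 2, the slide block 2 and the additional progenitor array 1. The cause was not tested. With the replicate number as a block all 24 held, and the members called lower in the response of HE2 minus HE went from 1 to 2. In the other comparisons with 3 arrays per group, the same numbers did not pair the samples. Comparisons with progenitors held 2 pairs each, where the rule used needed 3, so pairing could not be judged there (r of 0.118 to 0.381). Whether induced arrays 2 and 3 are numbered alike in both deposited sets was not tested. Members called higher with Dox in HE went from 2 to 1 with an offset of 50, the deposited values or only the groups compared, and lower from 2 to 5 at an adjusted P of at most 0.05 or by 2-fold change alone and to 1 with only the groups compared. In HE2, 1 was higher at that adjusted P or by 2-fold change alone, and 2 were lower with only the groups compared. In progenitors, 4 were higher and 1 lower by 2-fold change alone, and 1 was higher with slide as a block. In myeloid progenitors, 4 were higher by 2-fold change alone, and 1 was lower with an offset of 50, the deposited values, that adjusted P, 2-fold change alone, only the groups compared or the additional progenitor array. By 2-fold change alone, 5 members were lower from HE to HE2 without Dox, 7 lower and 1 higher with Dox, 8 lower from HE2 to progenitors without and 2 with Dox, 4 lower and 2 higher in the response of HE2 minus HE, and 6 higher in that of progenitors minus HE2. At an adjusted P of at most 0.05, 7 were lower from HE2 to progenitors without Dox, against 5. The counts under these alternatives are given without the share of all genes under the same alternative. They describe how the calls move and not whether the members exceed other genes. With only the groups compared, 0 were lower from HE to HE2 and 1 from HE2 to progenitors, both without Dox, and with slide as a block 0 from HE2 to progenitors with Dox. Leaving out 1 array gave 0 to 2 members lower with Dox in HE, 3 to 4 lower in HE2, 1 to 2 higher in progenitors and 0 to 1 lower in myeloid progenitors. It gave 0 to 1 lower from HE to HE2 without and 2 to 3 with Dox, 1 to 7 lower from HE2 to progenitors without and 0 to 1 with Dox, 0 to 1 higher and 1 to 2 lower for HE2 minus HE, and 0 to 3 higher for progenitors minus HE2. A lone progenitor array was assumed to vary like the other groups. Scaling to the 75th percentile moved the median of all genes by up to 0.101.

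Changes that turned sign were all uncalled. With Dox in progenitors, Actc1 was at 0.0033 (offset 50), 0.00085 (deposited values), 0.33 (slide block) and 0.10 (additional array), and Myl7 at -0.079 with 75th percentile scaling, which put Myl7 at -0.0028 in myeloid progenitors. From HE2 to progenitors without Dox, Myl7 was at -0.037 without background correction and -0.048 with the additional array. With Dox, 75th percentile scaling put Hand1 at 0.0033 and Myl7 at 0.060, the slide block Mybpc3 at 0.10 and Myl7 at 0.23, and the replicate block Myl7 at 0.019 and Myzap at 0.065. For HE2 minus HE, Tbx20 was at 0.16 with the mean of its probes. For progenitors minus HE2, Myl7 was at 0.020 without background correction, 0.21 with the slide block and 0.017 with the additional array. Leaving out 1 array gave, with Dox, -0.76 to 0.11 for Hand2 in HE, and in HE2 -0.099 to 0.50 for Mybpc3, -0.037 to 0.19 for Myl7, -0.81 to 0.34 for Myzap and -0.23 to 0.47 for Tnnt2. In progenitors it gave -0.44 to 0.42 for Actc1 and -0.24 to 0.35 for Myl7. From HE to HE2 it gave -1.17 to 0.085 for Actc1 and -1.21 to 4.8e-05 for Hand1 without Dox and -0.44 to 0.14 for Hand2 with Dox. From HE2 to progenitors it gave -0.17 to 0.17 for Myl7 without Dox, and with Dox -0.35 to 1.03 for Acta2, -0.87 to 0.069 for Actc1, -0.43 to 0.25 for Hand1, -0.35 to 0.29 for Mybpc3, -0.32 to 0.26 for Myl7, -0.59 to 0.32 for Myzap and -1.31 to 0.37 for Tagln. It gave -0.47 to 0.27 for Tbx20 in HE2 minus HE and -0.33 to 0.26 for Myl7 in progenitors minus HE2.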

Other observations

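In the RefSeq annotation of GRCm38.p6, the nearest gene before Mybpc3 on chromosome 2 is Spi1, which encodes the myeloid factor PU.1, and the nearest after it is Madd. Neighbours of the other members are not followed here, and a link between Spi1 and Mybpc3 was not tested. Without Dox, Spi1 was at 5.71, 5.01 and 5.68 on HE arrays, at 8.60, 8.81 and 8.88 on HE2 arrays and at 11.05 and 10.58 on progenitor arrays, and HE array 2 was not well above background. In uninduced myeloid progenitors Spi1 lay between 8.77 and 9.29, below both progenitor arrays, whereas the mean of Mybpc3 was 10.65 there and 10.05 in progenitors. With Dox, Spi1 changed by -0.30 in HE (adjusted P = 0.699), where Mybpc3 rose by 3.28. Spi1 then fell by 2.73 in HE2 and by 2.23 in progenitors, where the changes of Mybpc3 were 0.23 and -0.69 and not called. In myeloid progenitors neither change was called, at -1.39 for Spi1 (adjusted P = 0.0151) and -1.43 for Mybpc3 (adjusted P = 0.0135).

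The additional array of uninduced progenitors lay on slide 3 with 54.7% of its spots well above background, while the other 2 uninduced progenitor arrays lay on slides 1 and 2 with 71 and 67.5%. On this array, which entered no comparison but the alternative that adds it, 4 members lay within or between the values of the other 2 uninduced progenitor arrays, namely Hand2 (7.005), Mybpc3 (9.92), Myl7 (5.30) and Tnnt2 (8.36). Tagln (12.47) and Acta2 (12.03) were below both of them, as were Hand1 (6.16), Tbx20 (5.39) and Actc1 (6.51), and Myzap (7.84) was above both. The part of slide and signal in these differences was not tested.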
